A study of Mus musculus with 12 samples.

Results

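Mitochondrial fatty acid activation and beta-oxidation was followed through 31 genes, listed by symbol for their place in the pathway, out of 23183 gene symbols with a value in every library. The genes cover activation of fatty acids, the carnitine shuttle, the 4 reactions of the beta-oxidation spiral, the auxiliary enzymes for unsaturated chains and the electron transfer flavoproteins. Kidney cortex of male C57BL/6N mice (C57BL/6 in the sample labels), 6 to 7 weeks old at surgery, was collected on day 7 after unilateral ureteral obstruction (UUO), a model of tubulointerstitial fibrosis in which urine outflow from 1 side is blocked. RNA-seq gave 12 libraries in 4 groups of 3, and the values are FPKM, which count fragments against transcript length and sequencing depth. WT CL and WT UUO are the contralateral and the obstructed kidneys of mice with intact Acot12, which encodes an acyl-CoA thioesterase. Acot12-/- CL and Acot12-/- UUO are the same kidneys of mice that carry a nuclease-induced mutant Acot12 allele in the germline, so the mutation is carried by every cell type and not by the tubule alone. Every mouse underwent UUO, so CL kidneys are not kidneys of unoperated mice.

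Long-chain fatty acids are joined to coenzyme A by the ACSL synthetases at the outer mitochondrial membrane and other membranes, exchanged for carnitine by CPT1, carried across the inner membrane by the SLC25A20 translocase and returned to coenzyme A by CPT2. Medium-chain fatty acids can enter the matrix without carnitine and are activated there by the ACSM synthetases. In the matrix each turn of the spiral runs through a dehydrogenase chosen by chain length, a hydratase, a second, NAD-dependent dehydrogenase and a thiolase, and the electrons of the flavin-dependent step pass through ETF and its oxidoreductase to ubiquinone. Proximal tubule cells depend on this pathway for most of their ATP.

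The upstream sequences are shown for 4 members that stand out in the results: Acsm3 fell most, Acadm fell most among the dehydrogenases, Acsl5 did not pass the test, and Hadhb lies head to head with Hadha, whose product forms a complex with that of Hadhb but which fell less. A link between these sequences and the changes was not tested. The first 3 lines hold the 250 bases before the RefSeq start of the gene (GRCm38.p6), 5′ to 3′ on the gene's strand, at chr7:119760673-119760922 (+), chr3:153944644-153944893 (−) and chr19:55253119-55253368 (+), none of which overlaps a GENCODE exon. The Acsl5 stretch lies in an intron of a longer GENCODE transcript of the gene. The Hadhb line holds the 85 bases between the GENCODE exons of Hadha and Hadhb, at chr5:30155163-30155247 (+). Capitals mark, on either strand, CCAAT in Acsm3 and Acsl5, AGGTCA, the core motif of many nuclear receptors, in Acadm, and GGGCGG, a GC box, in Hadhb.
Acsm3: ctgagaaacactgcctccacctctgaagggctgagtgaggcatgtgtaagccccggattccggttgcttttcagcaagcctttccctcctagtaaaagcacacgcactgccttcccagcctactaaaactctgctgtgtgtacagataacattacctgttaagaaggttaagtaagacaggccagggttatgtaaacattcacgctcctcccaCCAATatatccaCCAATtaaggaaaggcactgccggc
Acadm: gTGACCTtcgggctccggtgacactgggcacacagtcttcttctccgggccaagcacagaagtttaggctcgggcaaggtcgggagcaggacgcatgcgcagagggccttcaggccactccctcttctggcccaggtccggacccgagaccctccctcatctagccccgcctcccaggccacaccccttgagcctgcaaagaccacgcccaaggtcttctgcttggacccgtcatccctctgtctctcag
Acsl5: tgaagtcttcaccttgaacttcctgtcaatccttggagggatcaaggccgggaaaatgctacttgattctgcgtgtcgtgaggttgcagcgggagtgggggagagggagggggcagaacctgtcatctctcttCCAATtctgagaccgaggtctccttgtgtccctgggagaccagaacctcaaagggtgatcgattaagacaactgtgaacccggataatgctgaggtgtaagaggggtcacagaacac
Hadhb: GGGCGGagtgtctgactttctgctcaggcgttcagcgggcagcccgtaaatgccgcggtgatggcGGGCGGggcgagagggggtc
RefSeq windows of 300 bases, from 250 before to 50 after the start, were at hand for 27 of the 31 genes, with the first window used for Acsl1, Acsl6 and Acsm2, which have several. Acaa2, Cpt1b, Crat and Decr1 had none. AGGTCA was in 6 of the 27 windows (22.2%), those of Acadm, Acadvl, Acsl6, Acsm1, Cpt1a and Echs1, against 16% of 27025 windows over all genes. CCAAT was in 13 (48.1%) against 37.9%, GGGCGG in 18 (66.7%) against 35.9% and TATAAA in 1 (Acsm2) against 14.2%. The longer motifs DR1 (AGGTCA followed after 1 base by a further AGGTCA) and TCAAGGTCA, both of which contain AGGTCA, were in 0 and 1 (Acsl6) of the 27 windows against 0.0444% and 0.407% over all genes. The RefSeq starts of Hadha and Hadhb lie 273 bases apart on chromosome 5 on opposite strands, so their windows share 228 bases. The longest GENCODE transcript of Hadha begins 182 bases further out, and the Hadhb line above is then also what lies directly before Hadha, read on the other strand.

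A few facts about the libraries bear on all results. The number by which the fragments of a library were divided, its divisor, was read from the steps between low values. This divisor was 0.922 to 1.21 times that of WT CL replicate 1 in CL libraries and 1.38 to 1.70 times in UUO libraries. Sequencing depth and any normalization factor in the divisor cannot be told apart here. Acot12 itself measured 52.7 to 78.1 FPKM in WT and 6.80 to 9.15 in Acot12-/- CL libraries, and 9.98 to 21.2 and 1.80 to 3.86 in the UUO libraries. Acot12-/- CL replicate 2 stood apart: it correlated with the other Acot12-/- CL libraries at 0.942 to 0.950 where those correlated with each other at 0.984. Over the members its deviation from its group went down with transcript GC content (Spearman's rho −0.726 across the 30 members tested, a description within 1 library), from −1.89 on the log2 scale for Acads, with the highest GC content (59.5%), to 1.26 for Acsl4, with the lowest (39.0%). Over all 12767 genes with a GC content rho was −0.758, so the trend was not particular to the members. Calls of members or ratios that changed without this library are given with and without it. Since all 4 groups share 1 estimate of the spread, it also enters the standard errors of the WT comparisons. Without it 28 members were lower after UUO in WT kidneys, where 8177 of all genes were called, 50.1% of them lower. Proximal tubule markers were present in all libraries (Lrp2, the endocytic receptor megalin, at 97.4 to 162 FPKM in CL). Of the 10 adipocyte genes, Cfd, Cidea, Adipoq and Ucp1 were highest in WT CL replicate 2, at 15.1, 4.36, 1.62 and 1.09 FPKM, where no other library passed 0.691, 0.286, 0.268 and 0.0670. Plin1, Cidec and Retn were also highest there, at 0.348, 1.32 and 0.707 FPKM. Fabp4, Lipe and Lep were not. Fabp4 was at 258 FPKM in WT CL replicate 2 against 279 and 307 in WT CL replicates 1 and 3. Lipe was at 3.92 against 7.79 in Acot12-/- CL replicate 1, and Lep was at 0. Without WT CL replicate 2, 26 members were lower after UUO in WT kidneys, with a median of −1.52. Of all genes 5506 were then called, 49.5% of them lower. The part of these markers in the members' levels was not tested. The files and labels name no batch, and do not say that the 3 libraries of a group come from separate mice, so p-values measure the spread between these libraries.

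**Figure D1:**
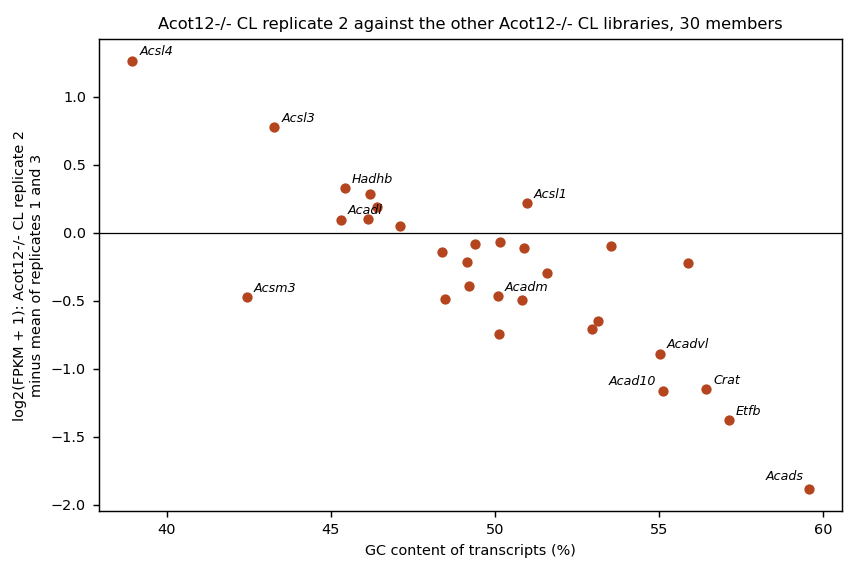
Points are the 30 members tested, by the GC content of their transcripts (percent) and by the level of Acot12-/- CL replicate 2 minus the mean of replicates 1 and 3 on log2(FPKM + 1). Members with high GC content, led by Acads at −1.89 and Etfb at −1.38, sit low and Acsl4 at 1.26 sits high.

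After obstruction every step of the pathway held members with lower expression in both genotypes, and no member passed the test as higher. In WT kidneys 27 of the 30 members tested were lower and 0 were higher after UUO, where 23.9% of all 13243 genes tested were lower and 23.6% higher (47.5% either way). In Acot12-/- kidneys 27 were also lower and 0 higher, against 27.2% and 26.6% of all genes (53.7% either way). All UUO libraries lay below all CL libraries for 28 members in WT and 26 in Acot12-/- kidneys and above them for 0, where 35.8% and 27.6% of all genes lay below and 35.5% and 27.8% above. The median log2 fold change over the members was −1.48 in WT and −1.49 in Acot12-/- kidneys, beside 0.0051 and −0.011 over all genes. The test was limma on log2(FPKM + 1) over all 12 libraries, with calls at p under 0.05 after Benjamini-Hochberg adjustment over all genes, and fold changes below are log2 differences on that scale with their standard error. At an unadjusted p under 0.05, 28 members were lower in each genotype. Counts at an unadjusted p, here and further on, are given without the share of all genes and cannot be read against it. Summed over all 31 members, expression was 5077 to 6299 FPKM in WT CL and 1411 to 2028 in WT UUO libraries. In Acot12-/- mice it ran from 5492 to 7545 FPKM in CL and from 1326 to 2345 in UUO. Summed over all genes, FPKM was lower in UUO libraries too, at 8.00e+05 to 9.78e+05 in WT CL and 4.91e+05 to 5.61e+05 in WT UUO. In Acot12-/- mice this total was 8.35e+05 to 8.97e+05 in CL and 5.29e+05 to 6.86e+05 in UUO. With equal totals, that is with the summed FPKM made equal in all libraries, the median over all genes was 0.618 in WT and 0.447 in Acot12-/- kidneys. Then 16 and 22 members were still lower, with 2 and 1 higher. Of all 13243 genes tested 8472 and 7628 were called in this scaling, 12.4% and 20.3% of them lower. The calls lost in WT kidneys were those of Acsl1 (−0.26 with equal totals), Acsl3 (−0.27), Cpt1a (−0.31), Slc25a20 (0.06), Crat (−0.44), Acadvl (−0.54), Acadl (−0.15), Acads (−0.35), Hadha (0.06), Eci1 (−0.46) and Etfb (−0.76). In Acot12-/- kidneys those of Acsl3 (−0.35), Slc25a20 (−0.21), Acad10 (−0.71), Hadha (−0.38) and Etfb (−0.73) were lost. In that scaling 12.4% and 20.3% of all calls were lower, against 50.3% and 50.5% without it, so changes of members are best read against the median of all genes.

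**Figure D2:**
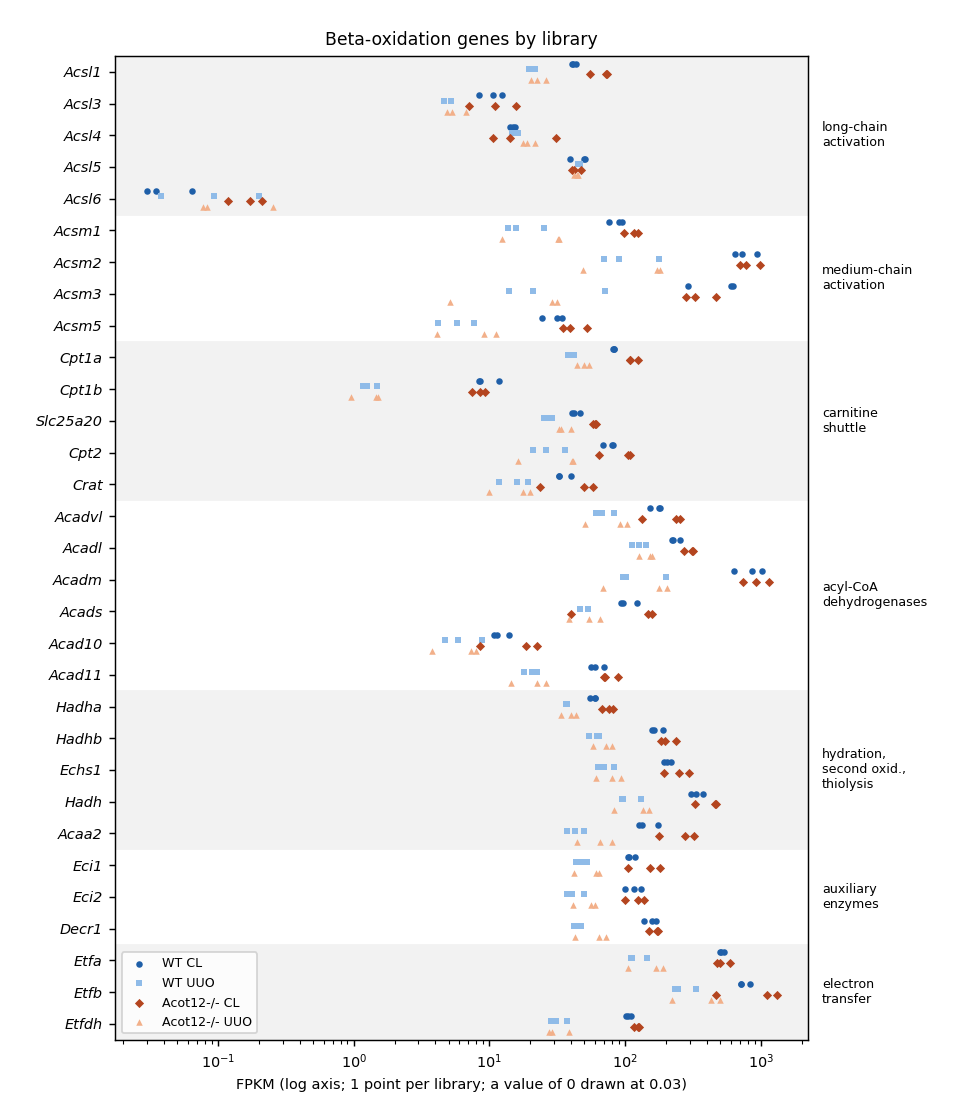
FPKM of the 31 members (log axis, 1 point per library) in the 4 groups, ordered by step. UUO libraries lie left of CL libraries for most genes, Acsl4 and Acsl5 overlap, and Acsl6 lies below 0.3 FPKM throughout.

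Of the long-chain synthetases, 2 fell and 2 did not pass the test. Positions given with a gene here and further on are its whole span in GENCODE vM21 (GRCm38). Acsl1 (chr8:46471037-46536051), the main long-chain synthetase of oxidative tissues, measured 40.3, 43.2 and 41.04 FPKM in WT CL, 19.7, 21.7 and 20.6 in WT UUO, 71.6, 73.1 and 55.1 in Acot12-/- CL and, after UUO, 25.99, 20.1 and 22.2 in Acot12-/- libraries. It fell by 0.97 ± 0.15 in WT (adjusted p = 0.000273) and by 1.50 ± 0.15 in Acot12-/- kidneys (adjusted p = 9.43e-06), with no overlap between UUO and CL libraries. Acsl3 (chr1:78657825-78707743), tied to lipid droplet formation, measured 12.4, 10.6 and 8.33 FPKM in WT CL, 4.59, 5.25 and 5.20 in WT UUO, 10.9, 15.8 and 7.05 in Acot12-/- CL and, after UUO, 6.67, 4.90 and 5.29 in Acot12-/- libraries. Its change was −0.92 ± 0.23 in WT (adjusted p = 0.00703) and −0.83 ± 0.23 in Acot12-/- kidneys (adjusted p = 0.00984), so both passed. Acsl4 (chrX:142317993-142390535), which prefers arachidonate and other polyunsaturated acids, measured 15.4, 15.02 and 14.2 FPKM in WT CL, 14.7, 14.96 and 16.2 in WT UUO, 14.2, 30.95 and 10.7 in Acot12-/- CL and, after UUO, 19.04, 21.6 and 17.7 in Acot12-/- libraries. Acsl4 differed by 0.04 ± 0.28 in WT (adjusted p = 0.924) and 0.19 ± 0.28 in Acot12-/- kidneys (adjusted p = 0.583), and the libraries overlapped. Its highest CL value, 30.95 FPKM, is that of Acot12-/- CL replicate 2, and without this library the difference in Acot12-/- kidneys was 0.61 ± 0.13 (adjusted p = 0.0017, higher). Acsl5 (chr19:55251938-55297720), found at the outer mitochondrial membrane and endoplasmic reticulum, measured 50.7, 49.98 and 39.4 FPKM in WT CL, 45.7, 46.3 and 44.8 in WT UUO, 40.7, 47.2 and 41.8 in Acot12-/- CL and, after UUO, 42.0, 44.8 and 44.5 in Acot12-/- libraries. It was the steadiest member, with differences of −0.03 ± 0.14 (adjusted p = 0.893) and 0.02 ± 0.14 (adjusted p = 0.917) and a highest-to-lowest ratio of 1.10 over the 6 UUO libraries. Scaled to equal totals, Acsl5 was higher in both genotypes (0.70, adjusted p = 0.00314, and 0.56, adjusted p = 0.0139) and Acsl4 in WT (0.73, adjusted p = 0.0450). Acsl6 (chr11:54303798-54364756), a synthetase of brain, was at 0.0640, 0.0350 and 0 FPKM in WT CL, 0.0940, 0.202 and 0.0380 in WT UUO, 0.172, 0.119 and 0.211 in Acot12-/- CL and, after UUO, 0.0780, 0.255 and 0.0830 in Acot12-/- libraries, and was the only member below the filter of 1 FPKM in 3 libraries.

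The balance between Acsl1 and Acsl5, the most abundant long-chain synthetases, moved towards Acsl5. In WT CL libraries Acsl5 made up 38.3 to 42.7% of the summed FPKM of the 5 Acsl genes and Acsl1 33.9 to 39.8%, whereas in WT UUO libraries Acsl5 made up 51.6 to 53.9% and Acsl1 23.2 to 24.6%. In Acot12-/- CL libraries Acsl1 led with 43.7 to 52.1% against 28.3 to 36.4% for Acsl5, and in Acot12-/- UUO libraries the order was the reverse, with 21.9 to 27.7% for Acsl1 and 44.8 to 49.6% for Acsl5. The ratio of Acsl5 to Acsl1 within a library, which in FPKM does not depend on scaling, was 0.961 to 1.26 in WT CL and 2.13 to 2.32 in WT UUO. In Acot12-/- kidneys the ratio ran from 0.568 to 0.759 in CL and from 1.62 to 2.23 in UUO. It rose with UUO by 1.24 on the log2 scale over both genotypes (exact permutation test within genotypes, two-sided, p = 0.005, the smallest of 400 regroupings, adjusted over 10 ratios 0.0125). Differences of ratios, here and further on, are of FPKM + 1 and so not free of scaling, while the ranges are of FPKM. The ratio of Acsl4 to Acsl1 rose by 1.35 (exact p = 0.005, adjusted 0.0125), from 0.346 to 0.383 in WT CL and 0.194 to 0.424 in Acot12-/- CL libraries to 0.689 to 0.789 and 0.733 to 1.08 in UUO. The ratio of Acsl3 to Acsl1 differed by 0.36 (exact p = 0.04, adjusted 0.075), and its WT libraries overlapped (0.203 to 0.309 in CL, 0.233 to 0.253 in UUO). With GC content corrected for, an alternative chosen after seeing the data, that difference was 0.57 (exact test, adjusted p = 0.00833). With CL and UUO kidneys of the same number paired, Acsl5 and Acsl4 rose over Acsl1 in 6 of 6 pairs each by the same 1.24 and 1.35. Their p was then 0.03125, the smallest that 64 exact sign flips can give, and 0.0521 adjusted over the 10 ratios.

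The 4 medium-chain synthetases had the lowest median of all steps, −2.55 in WT and −2.56 in Acot12-/- kidneys. All 4 were lower in both genotypes. The study had already singled out these genes from its own sequencing of obstructed kidneys, so their direction is not independent evidence. Acsm3 (chr7:119760923-119787513), which activates short and medium acyl chains, measured 601, 291 and 623 FPKM in WT CL, 13.9, 20.8 and 71.6 in WT UUO, 464, 279 and 324 in Acot12-/- CL and, after UUO, 29.1, 5.09 and 31.4 in Acot12-/- libraries. It changed by −4.06 ± 0.66 in WT (adjusted p = 0.000398) and −4.27 ± 0.66 in Acot12-/- kidneys (adjusted p = 0.000198), the largest fall of any member. Its UUO libraries were also the most spread of any member, with a highest-to-lowest ratio of 14.1. Acsm5 (chr7:119519463-119545551) measured 34.3, 24.4 and 31.7 FPKM in WT CL, 4.21, 5.80 and 7.66 in WT UUO, 52.3, 39.5 and 34.8 in Acot12-/- CL and, after UUO, 11.1, 4.09 and 9.18 in Acot12-/- libraries. It changed by −2.19 ± 0.30 in WT (adjusted p = 0.000133), the smallest fall of the family, and by −2.32 ± 0.30 in Acot12-/- kidneys (adjusted p = 5.76e-05). Acsm2, the most abundant of the family, went from 770.1 ± 151 FPKM in WT CL to 112 ± 57.2 in WT UUO and from 820.0 ± 144 to 133 ± 73.4 in Acot12-/- kidneys (mean ± SD, n = 3), and Acsm1 from 86.7 ± 9.98 to 18.2 ± 6.13 and from 113 ± 14.04 to 25.5 ± 11.3. The changes were −2.87 ± 0.46 and −2.81 ± 0.46 for Acsm2 and −2.23 ± 0.32 and −2.20 ± 0.32 for Acsm1, all with an adjusted p of 0.00035 or less. Acsm5, Acsm2, Acsm1 and Acsm3 are paralogs that follow each other on chromosome 7 between 119519463 and 119787513 (GRCm38), so reads could have been shared between them. The summed FPKM of the Acsm genes was 1036 to 1683 in WT CL against 103 to 119 for the Acsl genes, and 101 to 282 in WT UUO against 84.7 to 88.5. In Acot12-/- UUO the sums were 70.2 to 252 for Acsm and 89.8 to 93.8 for Acsl, so in Acot12-/- UUO replicate 2 the long-chain sum was the higher.

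**Figure D3:**
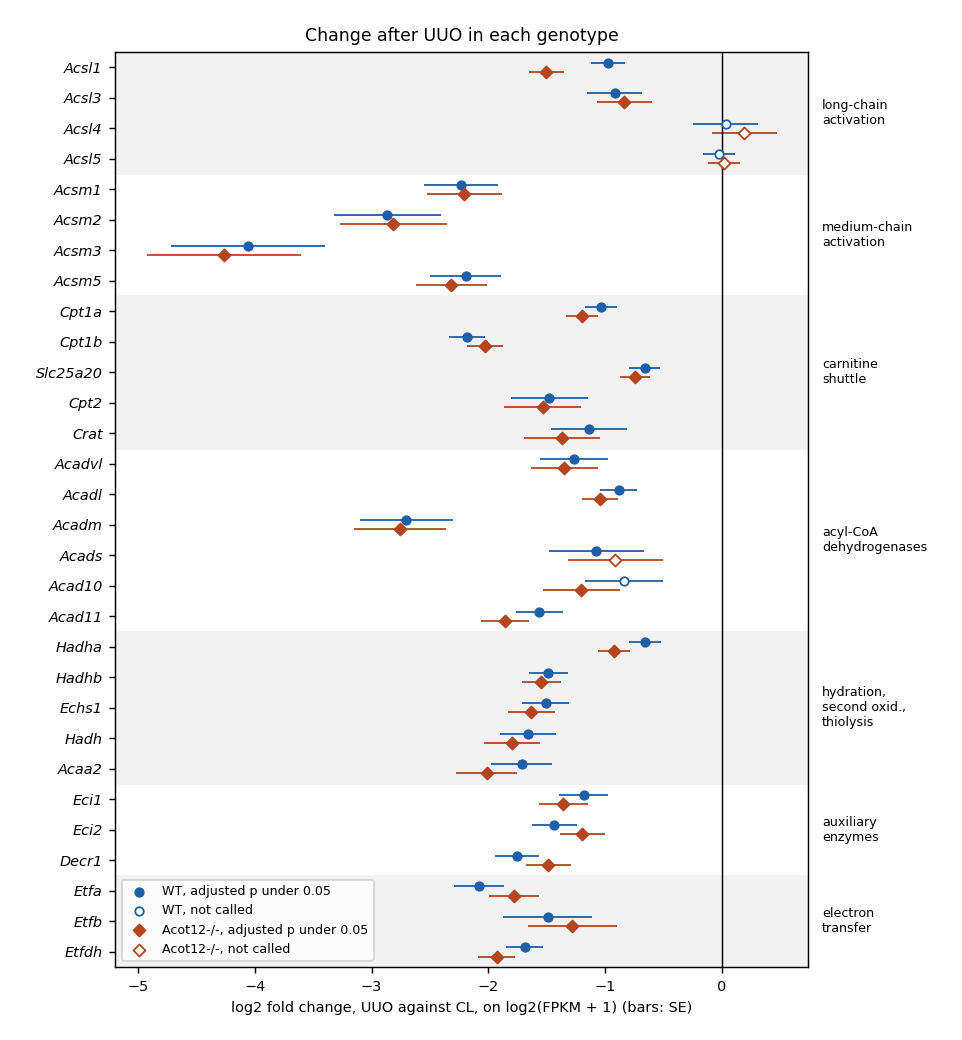
Log2 fold change from CL to UUO on log2(FPKM + 1) with its SE in WT (circles) and Acot12-/- kidneys (diamonds), filled where the adjusted p is under 0.05. Acsl4 and Acsl5 sit near 0, Acsm3 lies furthest left at −4.06 and −4.27, and Acads in Acot12-/- and Acad10 in WT kidneys are open.

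All 5 genes of the carnitine shuttle fell in both genotypes. Slc25a20 (chr9:108662088-108684641), the carnitine-acylcarnitine translocase, measured 46.3, 42.1 and 40.6 FPKM in WT CL, 25.4, 26.3 and 29.0 in WT UUO, 60.6, 57.6 and 60.1 in Acot12-/- CL and, after UUO, 39.6, 32.5 and 33.7 in Acot12-/- libraries. It changed by −0.66 ± 0.13 in WT (adjusted p = 0.00153) and −0.74 ± 0.13 in Acot12-/- kidneys (adjusted p = 0.000505), with no overlap between UUO and CL libraries. Cpt1a (chr19:3322334-3385733), the liver and kidney isoenzyme of the rate-limiting outer membrane transferase, measured 80.8, 82.1 and 83.2 FPKM in WT CL, 39.0, 37.7 and 42.3 in WT UUO, 125, 109 and 108 in Acot12-/- CL and, after UUO, 54.3, 43.98 and 49.9 in Acot12-/- libraries. It fell by 1.03 ± 0.13 (adjusted p = 9.57e-05) and 1.19 ± 0.13 (adjusted p = 2.15e-05), with UUO libraries all below CL libraries. Cpt1b (chr15:89416405-89425863), the isoenzyme of muscle and brown fat, was far less abundant at 11.7, 8.53 and 8.40 FPKM in WT CL, 1.18, 1.26 and 1.48 in WT UUO, 8.46, 7.41 and 9.20 in Acot12-/- CL and, after UUO, 1.50, 0.960 and 1.45 in Acot12-/- libraries. Its change of −2.18 ± 0.16 in WT (adjusted p = 2.39e-06) and −2.03 ± 0.16 in Acot12-/- kidneys (adjusted p = 1.64e-06) was the largest of the shuttle and had the smallest adjusted p of all members, and the pseudocount of 1 understates it at this level. Cpt2 (chr4:107903981-107923610), the inner membrane transferase, measured 79.8, 68.7 and 81.97 FPKM in WT CL, 20.9, 25.97 and 35.7 in WT UUO, 108, 64.4 and 104 in Acot12-/- CL and, after UUO, 40.7, 16.4 and 41.5 in Acot12-/- libraries. Its changes were −1.48 ± 0.33 (adjusted p = 0.00327) and −1.53 ± 0.33 (adjusted p = 0.00200). The ratio of Cpt1a to Cpt2 was 1.01 to 1.20 in WT CL and 1.18 to 1.87 in WT UUO libraries, and the difference over both genotypes, 0.39, did not pass (exact permutation p = 0.105, adjusted 0.131). Without Acot12-/- UUO replicate 2, which holds the highest ratio of 2.69, it was 0.22 (exact test, adjusted p = 0.312). Crat, which makes acetylcarnitine from short-chain acyl-CoA, changed by −1.14 ± 0.33 (adjusted p = 0.0128) and −1.37 ± 0.33 (adjusted p = 0.00370), from 35.04 ± 4.31 to 15.6 ± 3.74 FPKM in WT kidneys and from 43.8 ± 18.1 to 15.9 ± 5.23 in Acot12-/- kidneys (mean ± SD, n = 3).

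Among the acyl-CoA dehydrogenases the medium-chain enzyme fell most. Acadm (chr3:153922357-153944632), the medium-chain dehydrogenase whose deficiency is a common inborn error of fatty acid oxidation, had the highest mean FPKM of all members in WT CL and the highest after Etfb in Acot12-/- CL, and measured 1015, 633 and 853 FPKM in WT CL, 96.1, 102 and 199 in WT UUO, 1148, 740.5 and 914 in Acot12-/- CL and, after UUO, 177, 68.8 and 202 in Acot12-/- libraries. It fell by 2.70 ± 0.40 in WT (adjusted p = 0.000202) and 2.76 ± 0.40 in Acot12-/- kidneys (adjusted p = 0.000112), and the UUO libraries, at 68.8 to 202 FPKM, lay far below the CL libraries. Acadvl (chr11:70010183-70015411), which starts the oxidation of the longest chains at the inner membrane, measured 178, 153 and 179 FPKM in WT CL, 61.4, 67.2 and 82.7 in WT UUO, 237, 132 and 255 in Acot12-/- CL and, after UUO, 91.3, 50.4 and 103 in Acot12-/- libraries. It changed by −1.27 ± 0.29 (adjusted p = 0.00362) and −1.35 ± 0.29 (adjusted p = 0.00190). Acadl (chr1:66830839-66863277), the long-chain dehydrogenase of the matrix, measured 253, 222 and 225 FPKM in WT CL, 111, 126 and 142 in WT UUO, 316, 312 and 270.5 in Acot12-/- CL and, after UUO, 157, 127 and 153 in Acot12-/- libraries. Its changes, −0.88 ± 0.16 (adjusted p = 0.000735) and −1.04 ± 0.16 (adjusted p = 0.000164), were the smallest of the called members of this step in WT kidneys. Acads (chr5:115110299-115119346), the short-chain dehydrogenase, measured 96.2, 93.3 and 123 FPKM in WT CL, 46.4, 46.7 and 52.96 in WT UUO, 146, 40.2 and 156 in Acot12-/- CL and, after UUO, 54.5, 38.3 and 64.9 in Acot12-/- libraries. In WT kidneys it changed by −1.07 ± 0.41 and passed narrowly (adjusted p = 0.0474), a call lost in 12 of 22 alternatives, among them the removal of any of the 6 WT libraries or any of the 3 Acot12-/- UUO libraries. Without Acot12-/- CL replicate 2, which enters the shared estimate of the spread, the change in WT kidneys was −1.07 ± 0.18 (adjusted p = 0.000474). In Acot12-/- kidneys the difference of −0.91 ± 0.41 did not pass (adjusted p = 0.0792), with libraries that overlapped through the 40.2 FPKM of Acot12-/- CL replicate 2, and without that library it was −1.54 ± 0.20 (adjusted p = 9.5e-05). Without Acot12-/- CL replicate 3 it was −0.57 (adjusted p = 0.267).

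The remaining dehydrogenases take less common substrates. Acad10 and Acad11, which have been linked to branched and hydroxylated acids, lie on chromosomes 5 and 9. Acad10 (chr5:121621026-121660514) measured 11.3, 10.8 and 13.9 FPKM in WT CL, 4.71, 5.83 and 8.74 in WT UUO, 22.3, 8.57 and 18.7 in Acot12-/- CL and, after UUO, 7.36, 3.81 and 7.99 in Acot12-/- libraries. The difference in WT kidneys, −0.83 ± 0.33, did not pass (adjusted p = 0.0559) although all UUO libraries lay below all CL libraries. Without Acot12-/- CL replicate 2 it passed at −0.83 ± 0.25 (adjusted p = 0.0131). With CL and UUO kidneys of the same number paired it passed (adjusted p = 0.00285), as did Acads in Acot12-/- kidneys (0.0131), and 28 members were then lower in each genotype. Of all genes 6754 in WT and 7445 in Acot12-/- kidneys were called with this pairing, 51.5% of them lower in each genotype. In Acot12-/- kidneys Acad10 fell by 1.20 ± 0.33 (adjusted p = 0.00902). Acad11 went from 61.9 ± 6.89 to 20.3 ± 2.26 FPKM in WT and from 76.5 ± 10.3 to 20.9 ± 5.93 in Acot12-/- kidneys (mean ± SD, n = 3), changes of −1.56 ± 0.20 (adjusted p = 9.39e-05) and −1.85 ± 0.20 (adjusted p = 1.8e-05).

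**Figure D4:**
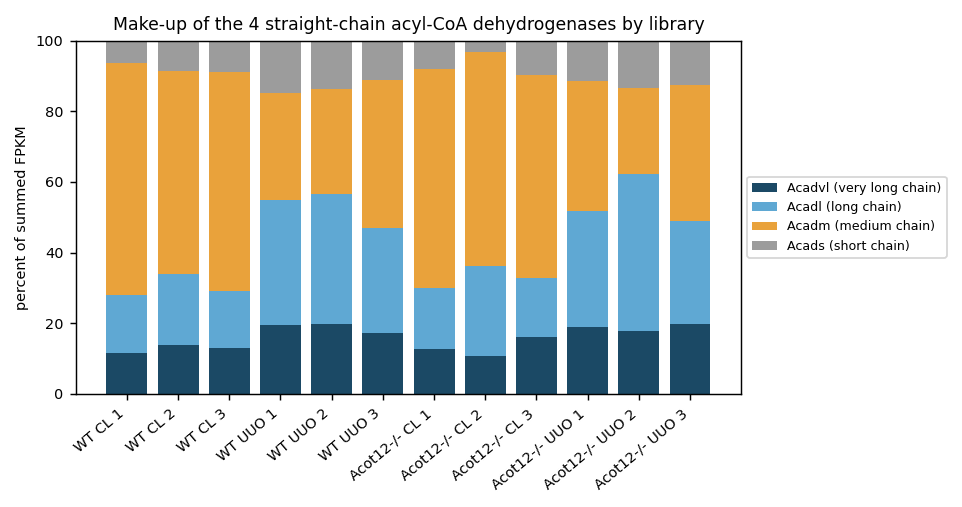
Share (percent) of each of the 4 straight-chain acyl-CoA dehydrogenases in their summed FPKM, 1 bar per library. Acadm holds 57.3 to 65.8% in CL and 24.2 to 41.8% in UUO libraries.

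The make-up of the dehydrogenases moved away from the medium-chain enzyme. Acadm made up 57.5 to 65.8% of the summed FPKM of Acadvl, Acadl, Acadm and Acads in WT CL and 29.8 to 41.8% in WT UUO libraries. In Acot12-/- mice its share was 57.3 to 62.1% in CL and 24.2 to 38.6% in UUO. Acadl had a larger share after UUO, with 16.3 to 20.1% in WT CL and 29.7 to 36.9% in WT UUO, and 16.96 to 25.5% and 29.3 to 44.6% in Acot12-/- kidneys. The ratio of Acadm to Acads was 6.79 to 10.6 in WT CL and 2.07 to 3.77 in WT UUO libraries, and 5.85 to 18.4 and 1.80 to 3.24 in those of Acot12-/- mice. It fell by 1.74 on the log2 scale (exact permutation p = 0.005, adjusted 0.0125), and without Acot12-/- CL replicate 2, which holds the value of 18.4, by 1.50 (exact test, adjusted p = 0.0125). Paired by number it fell in 6 of 6 pairs by the same 1.74, with p at the smallest that sign flips allow (exact p = 0.03125, adjusted 0.0521). The other ratios between chain lengths did not pass: Acadvl to Acads differed by −0.31 (exact p = 0.055, adjusted 0.0786), Acadl to Acads by 0.03 (exact p = 0.935) and Acadl to Acadvl by 0.35 (exact p = 0.12, adjusted 0.133). Without Acot12-/- CL replicate 2 they differed by −0.15, 0.36 and 0.51, of which the last passed (exact tests, adjusted p = 0.13, 0.0625 and 0.02). Without Acot12-/- CL replicate 3 Acadl to Acadvl differed by 0.22 (exact test, adjusted p = 0.35) and Acadl to Acads by −0.17 (adjusted 0.81). With GC content corrected for, Acadl rose against both Acads (0.61, exact test, adjusted p = 0.0143) and Acadvl (0.69, adjusted p = 0.00833). Over all members grouped by the chain length they handle, synthetases left out, the median change in WT kidneys was −1.27 for 7 long-chain, −2.21 for the 2 medium-chain (Acadm and Acaa2) and −1.32 for 4 short-chain genes. In Acot12-/- kidneys the medians were −1.35, −2.39 and −1.50.

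The genes of the reactions after the dehydrogenase had a median change of −1.51 in WT and −1.63 in Acot12-/- kidneys. Hadha and Hadhb encode the alpha subunit (long-chain hydratase and hydroxyacyl-CoA dehydrogenase) and the beta subunit (thiolase) of the trifunctional protein. Hadha (chr5:30118304-30155162) measured 59.9, 55.3 and 60.3 FPKM in WT CL, 36.4, 36.6 and 37.03 in WT UUO, 80.8, 67.2 and 75.6 in Acot12-/- CL and, after UUO, 43.6, 33.9 and 39.7 in Acot12-/- libraries. It changed by −0.66 ± 0.14 in WT (adjusted p = 0.00210) and −0.92 ± 0.14 in Acot12-/- kidneys (adjusted p = 0.000156), the smallest fall of this step. Hadhb (chr5:30155248-30184593), on the other side of the shared upstream region printed above, measured 190.2, 162 and 158 FPKM in WT CL, 62.0, 54.1 and 64.2 in WT UUO, 183, 238 and 197 in Acot12-/- CL and, after UUO, 80.04, 58.1 and 72.3 in Acot12-/- libraries. It changed by −1.48 ± 0.17 (adjusted p = 4.2e-05) and −1.55 ± 0.17 (adjusted p = 1.76e-05). The ratio of Hadha to Hadhb was 0.315 to 0.381 in WT CL and 0.577 to 0.676 in WT UUO, and 0.282 to 0.441 and 0.545 to 0.583 in those of Acot12-/- mice, with no overlap. It rose by 0.73 (exact permutation p = 0.005, adjusted 0.0125). Paired by number it rose in 6 of 6 pairs by the same 0.73, again with the smallest p of the exact sign flips (0.03125, adjusted 0.0521). Scaled to equal totals Hadha differed by 0.06 in WT kidneys (adjusted p = 0.774), while Hadhb fell in all 22 alternatives.

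**Figure D5:**
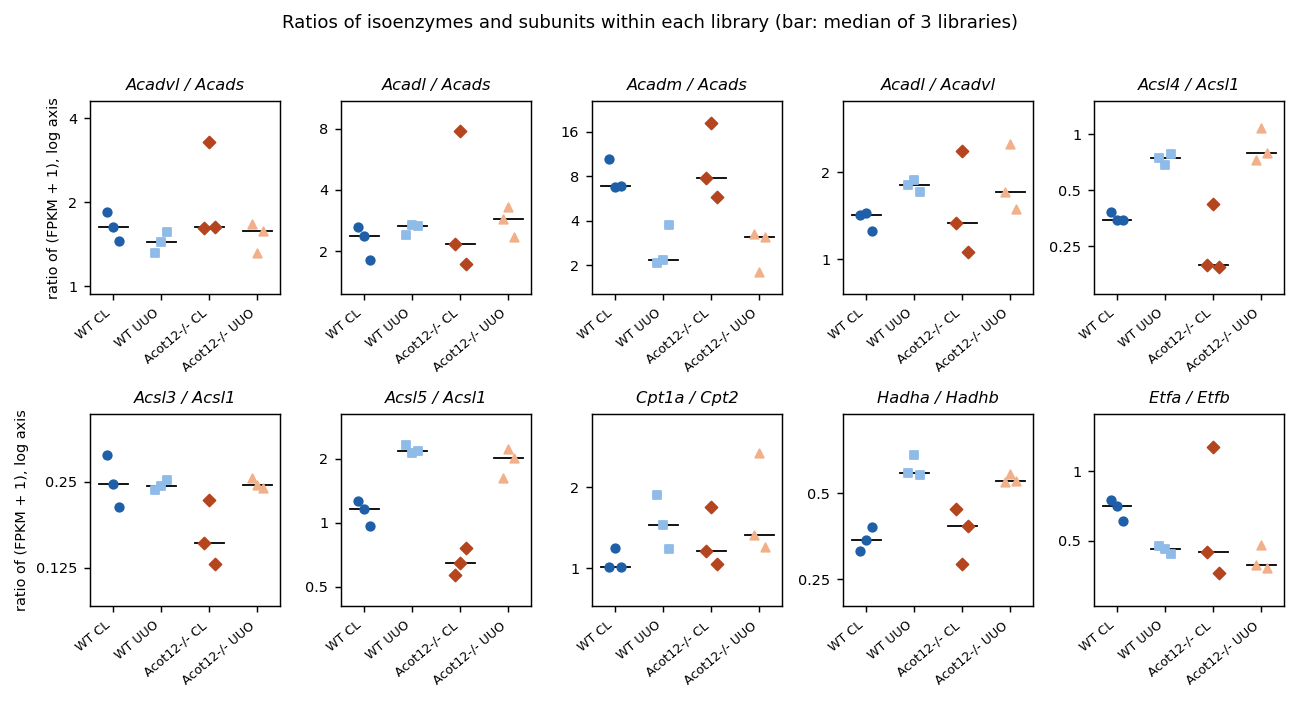
Ratios of 2 members within each library (log axis, bar at the median of 3 libraries). Acadm to Acads fell and Acsl4 to Acsl1, Acsl5 to Acsl1 and Hadha to Hadhb rose with UUO in both genotypes, and Acot12-/- CL replicate 2 is the highest CL point in the ratios to Acads and in Etfa to Etfb.

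The short- and medium-chain genes of these reactions, Acaa2, Echs1 and Hadh, all fell. Acaa2, the matrix thiolase of medium chains, measured 134, 126 and 175 FPKM in WT CL, 42.7, 37.6 and 49.7 in WT UUO, 323, 177 and 273 in Acot12-/- CL and, after UUO, 79.9, 43.8 and 65.4 in Acot12-/- libraries. It changed by −1.71 ± 0.26 in WT (adjusted p = 0.000262), the largest fall of this step, and −2.01 ± 0.26 in Acot12-/- kidneys (adjusted p = 5.54e-05). Echs1, the short-chain hydratase, changed by −1.51 ± 0.20 and −1.63 ± 0.20, from 205 ± 12.1 to 71.7 ± 9.85 FPKM in WT and from 244 ± 51.1 to 78.2 ± 16.3 in Acot12-/- kidneys. Hadh, the short-chain hydroxyacyl-CoA dehydrogenase, changed by −1.66 ± 0.24 and −1.80 ± 0.24, from 337 ± 35.04 to 107 ± 20.7 and from 419 ± 78.03 to 122 ± 34.98 FPKM (means ± SD, n = 3). Both passed in both genotypes, with adjusted p of 0.000112 and 3.98e-05 for Echs1 and 0.000185 and 6.68e-05 for Hadh.

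The auxiliary enzymes, which move or reduce the bonds of unsaturated chains so that the spiral can go on, fell together. Decr1 (chr4:15917240-15945507), the dienoyl-CoA reductase, measured 167, 136 and 156 FPKM in WT CL, 42.1, 44.7 and 47.2 in WT UUO, 149.6, 173 and 174 in Acot12-/- CL and, after UUO, 64.4, 42.4 and 72.8 in Acot12-/- libraries. It changed by −1.75 ± 0.19 in WT (adjusted p = 3.31e-05) and −1.48 ± 0.19 in Acot12-/- kidneys (adjusted p = 5.27e-05). Eci1 (chr17:24426641-24439348), an enoyl-CoA isomerase, measured 118, 105 and 107 FPKM in WT CL, 43.7, 47.8 and 52.2 in WT UUO, 153, 105 and 179 in Acot12-/- CL and, after UUO, 61.4, 42.3 and 64.5 in Acot12-/- libraries. It changed by −1.18 ± 0.21 (adjusted p = 0.000781) and −1.36 ± 0.21 (adjusted p = 0.000213), the smallest fall of the 3 in WT kidneys. Eci2, an isomerase of mitochondria and peroxisomes, changed by −1.43 ± 0.19 (adjusted p = 0.000116) and −1.19 ± 0.19 (adjusted p = 0.000271), from 116 ± 15.5 to 42.3 ± 6.41 FPKM in WT kidneys and from 121 ± 19.4 to 52.6 ± 9.79 in Acot12-/- kidneys (mean ± SD, n = 3).

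The genes of the electron acceptors all fell, with a median of −1.69 in WT and −1.78 in Acot12-/- kidneys. Etfa and Etfb encode the subunits of the electron transfer flavoprotein. Etfa (chr9:55454508-55512243) measured 533, 509.7 and 502 FPKM in WT CL, 109.7, 112 and 144 in WT UUO, 499, 590.5 and 473 in Acot12-/- CL and, after UUO, 169.7, 105 and 189 in Acot12-/- libraries. It changed by −2.08 ± 0.22 in WT (adjusted p = 2.52e-05) and −1.78 ± 0.22 in Acot12-/- kidneys (adjusted p = 3.46e-05). Etfb (chr7:43444083-43457800) measured 707, 717 and 823 FPKM in WT CL, 231, 245 and 330.1 in WT UUO, 1116, 463 and 1303 in Acot12-/- CL and, after UUO, 432, 219 and 497 in Acot12-/- libraries. Etfb changed by −1.49 ± 0.38 (adjusted p = 0.00671) and −1.28 ± 0.38 (adjusted p = 0.0131), and its Acot12-/- libraries overlapped, since Acot12-/- CL replicate 2, at 463 FPKM, lay below the 497 FPKM of Acot12-/- UUO replicate 3. Without that CL library the change was −1.74 ± 0.30 (adjusted p = 0.000595). The Etfb call in Acot12-/- kidneys was lost without Acot12-/- CL replicate 1, Acot12-/- CL replicate 3 or Acot12-/- UUO replicate 2 (adjusted p 0.0506 to 0.0624). Etfdh, the oxidoreductase that hands the electrons to ubiquinone, changed by −1.69 ± 0.16 (adjusted p = 1.54e-05) and −1.93 ± 0.16 (adjusted p = 2.7e-06), from 105 ± 4.56 to 32.1 ± 4.43 FPKM in WT and from 122 ± 6.02 to 31.7 ± 6.10 in Acot12-/- kidneys (mean ± SD, n = 3). The ratio of Etfa to Etfb differed by −0.54 (exact permutation p = 0.045, adjusted 0.075), with a value of 1.27 in Acot12-/- CL replicate 2 against 0.363 and 0.447 in the other Acot12-/- CL libraries. Without that library it differed by −0.27 (exact test, adjusted p = 0.111) and corrected for GC content by −0.09 (adjusted p = 0.472). Without Acot12-/- CL replicate 3 it passed at −0.72 (exact test, adjusted p = 0.02).

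The obstructed kidneys of a group were not alike, and members differed in how far they spread. Over the 6 UUO libraries the highest-to-lowest ratio ran from 1.10 for Acsl5 and 1.29 for Hadha to 2.93 for Acadm, 3.71 for Acsm2 and 14.1 for Acsm3. Acot12-/- UUO replicate 2 was the lowest UUO library for 19 of the 30 members. Markers of proximal tubule cells and of other tubule segments also differed between these libraries. The summed FPKM of the proximal tubule list, without Kap, whose listed value ran from 0 to 189588 FPKM, was 1460, 1913 and 3051 in WT UUO and 3535, 1176 and 3530 in Acot12-/- UUO replicates 1 to 3, and the summed members were 1411, 1512 and 2028 and 2274, 1326 and 2345 FPKM in the same order. Summed markers of other tubule segments were 614, 464 and 1071 in WT UUO and 872, 479 and 924 FPKM in Acot12-/- UUO replicates 1 to 3. Slc27a2 is in the proximal tubule list and also in that of peroxisomal beta-oxidation. Without Acot12-/- UUO replicate 2 the median change of the members in Acot12-/- kidneys was −1.21.

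Markers of the cell types of the kidney also moved with obstruction. Of 17 proximal tubule markers tested, 15 were lower and 0 higher in WT (median −1.93) and 16 and 0 in Acot12-/- kidneys (−2.53), led by Slc7a13, a transporter of the straight segment, in WT (−4.42 ± 0.77, adjusted p = 0.000657). Of 14 markers of other tubule segments 11 and 9 were lower and 0 higher. Injured tubule markers rose in 10 of 10 in both genotypes (medians 3.95 and 4.14), with Havcr1, the injury marker KIM-1, up by 7.33 ± 0.44 in WT (adjusted p = 9.16e-07). Macrophage markers were higher in 11 and 12 of 12 (summed 190 to 215 FPKM in WT CL, 836 to 998 in WT UUO, and 63.5 to 139 and 902 to 1219 in those of Acot12-/- mice), fibroblast markers in 9 and 12 of 12, and lymphocyte markers in 7 and 8 of 9. Endothelial markers were lower in 4 and higher in 1 of 10 in WT and lower in 0 and higher in 7 in Acot12-/- kidneys, and podocyte markers were lower in 2 and higher in 2 of 8 in each. Of 10 adipocyte genes 2 were tested, with 0 called in WT and Fabp4 higher in Acot12-/- kidneys. In these bulk libraries fewer tubule cells and less RNA of a gene per cell cannot be told apart, and the part of the marker changes in the fall of the members was not tested.

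Most other genes of fatty acid oxidation were lower after obstruction as well. Of 18 regulators 14 were lower and 0 higher in each genotype (medians −1.13 and −1.12), including Hnf4a, a transcription factor of proximal tubule and liver, at −1.17 ± 0.18, adjusted p = 0.000243, and Sirt3, a mitochondrial deacetylase, at −1.82 ± 0.36, adjusted p = 0.00150 in WT kidneys. Nrf1, a regulator of mitochondrial biogenesis, was not called (0.26 ± 0.12, adjusted p = 0.0937). Peroxisomal beta-oxidation, which shortens very long chains, was lower in 13 and 14 of 17 genes with 0 higher (medians −1.73 and −1.79), with Ehhadh, its bifunctional enzyme, at −2.98 ± 0.47, adjusted p = 0.000331 in WT. Carnitine uptake and synthesis was lower in 5 and higher in 1 of 6 in each genotype. The gene that rose was Slc22a21, a carnitine transporter, at a mean of 0.696 FPKM over all libraries (0.51 ± 0.15, adjusted p = 0.0143 in WT). Among 17 other mitochondrial acyl-CoA enzymes 14 were lower and 0 higher in each genotype, with Acat1, the acetoacetyl-CoA thiolase, at −2.87 ± 0.33, adjusted p = 4.16e-05 in WT.

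Few members differed between the genotypes by the test. Between Acot12-/- and WT in UUO kidneys 0 of 30 members were called by limma, where 0.0151% of all genes were, and 2 had an unadjusted p under 0.05. These were Cpt1a (0.31 ± 0.13) and Slc25a20 (0.38 ± 0.13), with Acot12-/- UUO libraries all above WT UUO libraries and an adjusted p of 1.00 each. All Acot12-/- UUO libraries were above all WT UUO libraries for 3 members (5.5% of all genes) and below for 1, Acsl5 (6.48%). The median difference over the members was 0.16, beside 0.0020 over all genes, with 24 of 30 members positive. The share of all genes with a positive difference is not given, so the 24 do not set the members apart. Standard errors of 0.13 to 0.66 limit what 3 against 3 libraries can show. In CL kidneys 1 of 30 members was called, against 4.48% of all genes (1.12% higher and 3.36% lower). Acsl1 was higher in Acot12-/- CL by 0.66 ± 0.15 (adjusted p = 0.0292), with 71.6, 73.1 and 55.1 FPKM against 40.3, 43.2 and 41.0 in WT CL, and the call was lost in 8 of 22 alternatives (adjusted p 0.0529 to 0.178 in those 8), among them the removal of any of the 3 WT CL libraries, of WT UUO replicates 1 or 2, or of Acot12-/- CL replicate 1. A further 5 members, all higher, had an unadjusted p under 0.05: Acaa2 (0.80 ± 0.26), Cpt1a (0.47 ± 0.13), Slc25a20 (0.46 ± 0.13), Acadl (0.36 ± 0.16) and Hadha (0.34 ± 0.14), with adjusted p of 0.0736 to 0.259. The share of all genes at that unadjusted threshold is not given, so this count does not set the members apart. All Acot12-/- CL libraries lay above all WT CL libraries for 10 of the 30 members and below for 0, where 8.6% and 9.73% of all genes did.

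Acot12-/- CL replicate 2 decides how many members differed between CL kidneys. Without it 6 of 30 were higher in Acot12-/- CL: Acaa2 (1.05 ± 0.24, adjusted p = 0.0137), Acsl1 (0.59 ± 0.14, 0.0148), Cpt1a (0.50 ± 0.12, 0.0158), Slc25a20 (0.48 ± 0.12, 0.0167), Hadha (0.41 ± 0.12, 0.0298) and Eci1 (0.59 ± 0.17, 0.0356). With all libraries 593 of 13243 genes tested (4.48%) were called, and without this library 2918 genes were, 47.4% of them lower. The rise in calls was thus not particular to the members. Markers of other cells differed between the same kidneys. Endothelial markers were lower in Acot12-/- CL in 8 of 10 (median −1.13, summed 222 to 350 FPKM in WT CL and 81.2 to 122 in Acot12-/- CL), lymphocyte markers in 6 of 9, fibroblast markers in 5 of 12, macrophage markers in 4 of 12 and adipocyte genes in 1 of 2 (Fabp4), with 0 higher, and 0 of 17 proximal tubule markers were called (median 0.56). Between the UUO kidneys limma called 0 genes of any marker list, with an unadjusted p under 0.05 for 6 lymphocyte markers and 1 marker of other tubule segments. The part of these markers in the higher level of Acsl1 was not tested.

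The change with UUO did not pass a test of difference between genotypes for any member. By limma 0 of 30 were called for the interaction, where 0.106% of all genes were, and 1, Acsl1, had an unadjusted p under 0.05. The change of Acsl1 was lower in Acot12-/- than in WT kidneys by an interaction of −0.53 ± 0.21, which did not pass (adjusted p = 0.382). In fold change 19 of 30 members fell more in Acot12-/- than in WT kidneys. The median interaction over all genes was −0.011. The share of all genes that went this way is not given, so the 19 do not set the members apart. Without Acot12-/- CL replicate 2 the interaction was called for 0 members, with 899 of all genes called in place of 14.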

How the data were processed

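Total RNA of kidney cortex was sequenced from strand-specific libraries, and trimming, mapping and normalization were done by E-Biogen. The processing notes name mm10 and edgeR, and the aligner and counter are not given in the sources used here. The authors deposited 1 table per library, whose unit is not named. Its deposited values were taken as FPKM, since low values are steps that shrink as transcripts lengthen. Depth is known only relative to other libraries, and not apart from any normalization factor. The test was limma 3.58.1 in R 4.3.3 on log2(FPKM + 1) with a variance trend, over 13243 genes at 1 FPKM or more in 3 or more libraries. A further 28 genes listed at 0 in some library beside 10 FPKM or more in its group were left out. The 12 libraries formed 4 groups, with 5 comparisons including the interaction, Benjamini-Hochberg adjusted over all genes. Ratios were tested as log2 ratios of FPKM + 1 by exact permutation within genotype and adjusted over 10. The model was also run on simulated data with independent normal values and no library like Acot12-/- CL replicate 2. That run cannot show how the model does with such a library.

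Members, lists and tests were chosen with earlier results of these data known. Values in every library are given for the members with the largest and smallest change of each step in WT kidneys, those called between genotypes, below the filter or in a ratio, and means for the rest. Other lists name at most 3 genes each, the largest rise, the largest fall and the highest mean. Positions come from GENCODE vM21 (GRCm38) and promoters from RefSeq GRCm38.p6. Deviations from the group mean correlated between CL and UUO libraries of the same number at 0.134, 0.364 and 0.335 in WT kidneys. In Acot12-/- kidneys these values were 0.322, 0.186 and 0.318. For different numbers the highest was 0.139 in WT and −0.075 in Acot12-/- kidneys. Between WT UUO and Acot12-/- UUO, which are different mice, values reached 0.392 for the same number and 0.451 for different numbers. The correlations therefore do not show that libraries of a number share a mouse. A blocked alternative took the numbers as mice by assumption. Across genotypes the numbers were not paired. Further alternatives changed the pseudocount (0.1), the filter, the listed zeros, the scaling (median ratio, equal totals), the variance trend, the threshold, the groups fitted and each library left out. A correction for GC content, alone and with the block, was added after seeing the data.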

Additional observations from a re-analysis of the deposited data

How the results depend on the processing

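Every member called lower in both genotypes kept its direction in all 22 alternatives except Slc25a20 and Hadha in WT kidneys. With equal totals these were at 0.055 and 0.061, the count of members lower in WT fell from 27 to 16, and 2 members were higher in WT and 1 in Acot12-/- kidneys. Of all genes 8472 were called in WT with equal totals, 12.4% of them lower, and 7628 in Acot12-/- kidneys, 20.3% of them lower. The median change of the members was then −0.76 in WT and −0.96 in Acot12-/- kidneys, that of the long-chain synthetases 0.22 and 0.10 (−0.47 and −0.41 otherwise), and Acsl5 in WT 0.70. The equal totals by construction move the median of all genes. With the GC correction, alone or with the replicate block, 1 member was higher in each genotype and Acsl5 in WT was at 0.14. The same correction moved Acadl to Acads to 0.61, Acadl to Acadvl to 0.69 and Acsl3 to Acsl1 to 0.57, all then called. The cause of these moves was not tested.

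Under the replicate block the 4 called ratios kept their values of −1.74, 1.35, 1.24 and 0.73 and their direction in 6 of 6 pairs, with the smallest p that 64 sign flips can give (exact p = 0.03125, adjusted 0.0521), so the lost call says nothing of their size. The block added Acad10 in WT and Acads in Acot12-/- kidneys to the members called lower and changed no other call of a member. It raised the number of all genes called for the interaction from 14 to 83.

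Between Acot12-/- and WT CL kidneys 3 members were called without the filter on low values, and 0 with equal totals, with only the groups compared, at an adjusted p under 0.01 or with a fold change of at least 2. Leaving out 1 library gave 0 to 6 there, with 6 without Acot12-/- CL replicate 2, where 2918 of all genes were called. The same omission gave 1 higher member after UUO in Acot12-/- kidneys (0 to 1 over all omissions), where 8388 of all genes were called, 53.5% of them lower. Over these omissions Acsl4 ranged from −0.0038 to 0.063 in WT and from −0.11 to 0.61 in Acot12-/- kidneys, and Acsl5 from −0.14 to 0.037 and from −0.022 to 0.083. The median of all members ranged from −1.67 to −1.21 in Acot12-/- kidneys, lowest without Acot12-/- CL replicate 2 and highest without Acot12-/- UUO replicate 2. The median of the long-chain synthetases in these kidneys was −0.25 without Acot12-/- CL replicate 2. The ratio of Acadl to Acads ranged from −0.17 to 0.36, Acadl to Acadvl from 0.22 to 0.51, Acsl3 to Acsl1 from 0.29 to 0.46 and Etfa to Etfb from −0.72 to −0.27. Of these, Acadl to Acadvl was called without Acot12-/- CL replicate 2, Acsl3 to Acsl1 without WT CL replicate 1 and Etfa to Etfb without Acot12-/- CL replicate 3 (exact tests). The interaction could not be fitted with only the groups compared. Depth is not stated, and small changes of genes near 1 FPKM and differences within their standard errors could go undetected here.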
